A study of Mus musculus with 4 samples.

Results

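The lens crystallins are the gene family described here, as read on 2-colour microarrays of the embryonic mouse telencephalon, the part of the brain that forms the cerebral hemispheres. The 10 genes are Cryaa, Cryba1, Cryba2, Cryba4, Crybb3, Cryga, Crygc, Crygd, Cryge and Crygf, of 11791 genes that had at least 1 spot with a value on all 4 arrays. A spot counted for a gene where the platform annotation gives that gene as its only symbol. The genes were picked because their mean ratios stood out in these same arrays, so their ratios are a description and carry no test. The family is not shown whole: 6 further lens crystallins were listed, of which Crybb1 and Cryab were also read on all 4 arrays, and Crygb had no spot with its symbol.

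The series compared 152F7 transgenic embryos with wild-type embryos at stage E12.5, all on an FVB background. The 152F7 mice carry a yeast artificial chromosome with a human segment that includes DYRK1A, a protein kinase gene studied in Down syndrome. Since the arrays are labelled technical replicates of one series of pools, each genotype counts as 1 RNA pool, and the number and sex of the embryos in a pool are not stated in the labels. The 152F7 RNA carried the dye Cy5 and the wild-type RNA Cy3 on 2 arrays, and on the other 2 arrays the wild-type RNA carried Cy5 and the 152F7 RNA Cy3.

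Crystallins are the abundant soluble proteins that make the lens of the eye transparent and give it refractive power. The alpha crystallins are small heat shock proteins that keep other proteins from aggregating. The beta and gamma crystallins share one fold and are structural proteins of the elongated lens fibre cells, and beta chains assemble into oligomers while gamma chains stay monomers. The lens forms from surface ectoderm next to the optic cup, so it lies close to the telencephalon but is not part of it. Crystallin transcription in lens fibres is driven by large Maf proteins, SOX proteins and Pax6.

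Every value below is a log2 ratio, numerator pool over denominator pool. The labels do not say which genotype is the numerator, and the values do not settle it. A positive ratio therefore means more RNA in the numerator pool, which is either 152F7 or wild type on all 4 arrays together, and with the ratio the other way up every sign would turn. The common direction of the 4 arrays was inferred from the values: across 4348 genes with at least 2 spots, crystallin-named genes and Xist left out, the first 2 spots of a gene correlated at 0.387 when the 4 deposited values were averaged and at 0.0971 with 1 orientation turned (Pearson, across genes, which are not independent replicates). A contrast of replicate numbers, which holds neither genotype nor dye, gave 0.0712. Xist read -3.53 and -3.38 with 152F7 in Cy5, and -3.33 and -3.27 with wild type in Cy5. The Y-linked Eif2s3y read 2.39 and 2.37, and 1.77 and 1.87, so both genes kept their sign in both orientations. Across all spots, however, arrays of different orientation correlated at -0.596 to -0.661. The direction remains an inference. The log base is not stated either and was read as log2. The largest value has a size of 5.76, and a log10 ratio of raw 16-bit intensities of at least 1 cannot pass 4.82. Corrected intensities can fall below 1, and the correction is not stated. Neither log10 nor natural logs are therefore excluded, and every fold below rests on the log2 reading. With 1 pool per genotype no test between genotypes was possible, and the SD printed with a mean is over 4 technical arrays. A ratio of bulk RNA also cannot tell more lens cells from more crystallin RNA per cell.

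The family was higher in the numerator pool throughout. All 52 single values, from 13 spots on 4 arrays, were above 0, and they ran from 0.243 to 1.442. The 10 gene means ran from 0.36 to 1.21, that is 1.29-fold to 2.31-fold, with a median of 0.69 ± 0.04 (SD of the members' medians on the 4 arrays), against a median of 0.002 for all 11791 genes. A gene was counted as higher where its mean was at least 1.5-fold with the same sign on all 4 arrays: 5 of the 10 crystallins met this, and 0.0763% of all genes (9 genes) did. At a log2 ratio of 0.32 (25% higher) all 10 met it, and 0.28% of all genes (33 genes) did. The genes were chosen on these ratios, so nothing is read from the excess over the background shares. Were 1 orientation turned instead, the 10 values would lie between -0.04 and 0.13, and 0 of the 10 would pass 0.32 (0.0678% of all genes would be past it upward and 0.102% downward). All 10 lay among the 30 highest genes of the table, and 6 of them among the 10 highest.

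**Figure D1:**
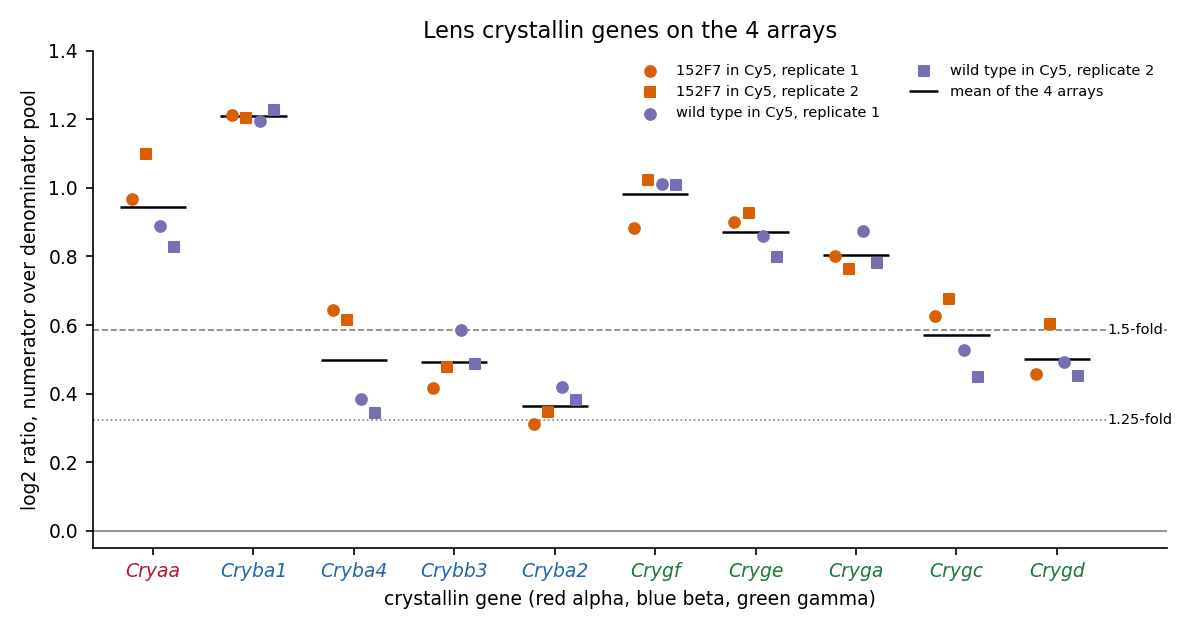
Log2 ratio of numerator over denominator pool (vertical axis) of each of the 10 lens crystallin genes (horizontal axis) on the 2 arrays with 152F7 in Cy5 (orange) and the 2 arrays with wild type in Cy5 (purple). Circles are replicate 1, squares replicate 2, black lines the mean of the 4 arrays, and the lines mark 1.5-fold and a log2 ratio of 0.32. All points are above 0; Cryba1 is highest with the 4 points nearly on one level, and the 2 orientations of Cryba4 stand apart.

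The promoters of the 5 highest crystallins are printed here, since these genes lie at the top of the ratios and cover all 3 classes. Each is the RefSeq window from 250 bases before to 50 bases after the annotated start on build GRCm38.p6, 5′ to 3′ on the gene's strand. Capitals mark the matches, on either strand, to TATAAA (the TATA box), TATATA (a variant of it, added after the windows were seen), TGCTGA (a core bound by Maf proteins) and ACAAT (a core bound by SOX proteins). The windows are chr11:77725244-77725543 on the minus strand for Cryba1, chr1:65926272-65926571 on the plus strand for Crygf, chr17:31677681-31677980 on the plus strand for Cryaa, chr1:65051114-65051413 on the minus strand for Cryge and chr1:65103314-65103613 on the minus strand for Cryga.
Cryba1: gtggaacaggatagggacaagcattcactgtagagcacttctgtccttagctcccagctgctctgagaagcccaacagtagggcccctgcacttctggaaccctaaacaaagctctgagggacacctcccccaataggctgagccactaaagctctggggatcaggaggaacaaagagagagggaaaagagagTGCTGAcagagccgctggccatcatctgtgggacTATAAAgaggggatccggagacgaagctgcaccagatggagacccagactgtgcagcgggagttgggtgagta
Crygf: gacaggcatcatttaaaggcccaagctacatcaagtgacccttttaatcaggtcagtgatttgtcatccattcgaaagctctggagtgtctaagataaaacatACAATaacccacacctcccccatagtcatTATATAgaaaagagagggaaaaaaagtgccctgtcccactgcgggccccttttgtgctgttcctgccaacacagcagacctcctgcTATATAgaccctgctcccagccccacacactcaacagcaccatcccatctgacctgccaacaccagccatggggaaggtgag
Cryaa: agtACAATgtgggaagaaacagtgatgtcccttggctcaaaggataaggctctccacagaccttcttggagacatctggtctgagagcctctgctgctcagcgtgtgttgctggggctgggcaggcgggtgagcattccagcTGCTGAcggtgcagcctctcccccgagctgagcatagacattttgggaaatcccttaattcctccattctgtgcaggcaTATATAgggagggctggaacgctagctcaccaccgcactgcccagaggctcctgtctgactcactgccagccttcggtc
Cryge: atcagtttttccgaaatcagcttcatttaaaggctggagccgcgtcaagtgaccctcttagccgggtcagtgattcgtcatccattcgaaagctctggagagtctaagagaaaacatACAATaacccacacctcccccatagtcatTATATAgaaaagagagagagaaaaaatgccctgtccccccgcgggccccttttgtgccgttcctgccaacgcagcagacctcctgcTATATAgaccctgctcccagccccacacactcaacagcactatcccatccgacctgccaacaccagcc
Cryga: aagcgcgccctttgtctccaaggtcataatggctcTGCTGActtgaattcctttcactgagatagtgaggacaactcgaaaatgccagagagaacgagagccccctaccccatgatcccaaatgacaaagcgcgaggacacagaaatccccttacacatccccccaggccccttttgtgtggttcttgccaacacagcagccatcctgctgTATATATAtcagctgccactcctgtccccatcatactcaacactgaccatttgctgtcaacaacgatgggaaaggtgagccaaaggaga

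Cryaa encodes the lens alpha-A chain, a chaperone, and is the only alpha crystallin among the 10. Its gene values were 0.967 and 1.098 with 152F7 in Cy5, and 0.889 and 0.828 with wild type in Cy5. The mean was 0.95 ± 0.12, or 1.93-fold. All 4 arrays were well above 0, and the 2 arrays with 152F7 in Cy5 were the higher ones, with no overlap between orientations.

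The beta crystallins held both the highest and the lowest of the 10. Cryba1, which encodes the beta-A3 and beta-A1 chains from one transcript, read 1.213 and 1.204 with 152F7 in Cy5, and 1.196 and 1.228 with wild type in Cy5. Its mean of 1.21 ± 0.01, or 2.31-fold, had the smallest SD of the 10, and the orientations overlapped. Only the Y-linked Eif2s3y was higher among all genes.

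Cryba4, the beta-A4 chain, read 0.644 and 0.615 with 152F7 in Cy5, and 0.385 and 0.342 with wild type in Cy5. Its mean was 0.50 ± 0.16, or 1.41-fold, and its SD was the largest of the 10. The 2 orientations differed by 0.266 and arrays of one orientation by at most 0.043. The first orientation alone would put it above 1.5-fold and the other below.

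Crybb3, the beta-B3 chain, read 0.416 and 0.477 with 152F7 in Cy5, and 0.585 and 0.486 with wild type in Cy5. Its mean was 0.49 ± 0.07, or 1.41-fold, and here the arrays with wild type in Cy5 were higher. Cryba2, the beta-A2 chain, read 0.310 and 0.345 with 152F7 in Cy5, and 0.418 and 0.382 with wild type in Cy5. Its mean of 0.36 ± 0.05, or 1.29-fold, was the lowest of the 10, and its orientations did not overlap either.

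The gamma crystallins, the densely packed monomers of the lens core, had gene means from 0.50 to 0.98, a narrower range than the beta genes. By single spots the gamma genes ran from 0.37 to 1.23, about as wide as the beta genes at 0.36 to 1.21. Crygf, gamma-F, read 0.884 and 1.023 with 152F7 in Cy5, and 1.011 and 1.008 with wild type in Cy5, and its mean was 0.98 ± 0.07, or 1.97-fold. Of these 4 values 3 lay within a narrow band and replicate 1 with 152F7 in Cy5 lay below it. Cryge, gamma-E, read 0.900 and 0.928 with 152F7 in Cy5, and 0.860 and 0.799 with wild type in Cy5, and its mean was 0.87 ± 0.06, or 1.83-fold. The arrays with 152F7 in Cy5 were the higher ones for Cryge. Cryga, gamma-A, read 0.800 and 0.762 with 152F7 in Cy5, and 0.873 and 0.781 with wild type in Cy5, with a mean of 0.80 ± 0.05, or 1.75-fold, and overlapping orientations.

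The 2 remaining gamma genes lay just below 1.5-fold. Crygc, gamma-C, read 0.626 and 0.677 with 152F7 in Cy5, and 0.529 and 0.447 with wild type in Cy5, and its mean was 0.57 ± 0.10, or 1.48-fold. Crygd, gamma-D, read 0.456 and 0.604 with 152F7 in Cy5, and 0.492 and 0.452 with wild type in Cy5, and its mean was 0.50 ± 0.07, or 1.42-fold. The orientations of Crygc did not overlap and those of Crygd did. By class, the median of the 5 gamma genes was 0.80 and that of the 4 beta genes 0.49, but the beta gene Cryba1 lay above every gamma gene, so the classes overlap.

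In the order of the 10 means, 4 of the 9 steps between neighbours kept their direction on all 4 arrays and exceeded the SD of the difference. These were Cryba1 over Crygf (0.23 ± 0.07), Cryaa over Cryge (0.07 ± 0.07), Cryga over Crygc (0.23 ± 0.13) and Crybb3 over Cryba2 (0.13 ± 0.03). The other 5 steps were smaller than their SD, so that Crygf and Cryaa, Cryge and Cryga, and the run of Crygc, Crygd, Cryba4 and Crybb3 had no order beyond the spread of the arrays. These SDs leave out the spread between spots of one gene. The spots of Cryaa, Cryge and Crygc differed by 0.66, 0.71 and 0.39. The steps Cryaa over Cryge and Cryga over Crygc do not exceed that spread.

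Cryaa, Crygc and Cryge were each read by 2 spots, and in each the 2 spots differed by more than the arrays did. For Cryaa, 1 spot lay between 1.14 and 1.442 on the 4 arrays, and the other read 0.663 and 0.753 with 152F7 in Cy5, and 0.527 and 0.516 with wild type in Cy5. The spot means were thus 1.28 and 0.61, 2.42-fold and 1.53-fold for the same gene. For Cryge the spot means were 1.23 ± 0.09 and 0.52 ± 0.09, and for Crygc they were 0.77 ± 0.08 and 0.37 ± 0.15. The higher spot exceeded the lower on all 4 arrays in all 3 genes, by 0.66 ± 0.05 for Cryaa, 0.71 ± 0.14 for Cryge and 0.39 ± 0.12 for Crygc. Across the 3192 genes of the table with exactly 2 measured spots the median difference was 0.0455 and the 95th percentile 0.182.

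**Figure D2:**
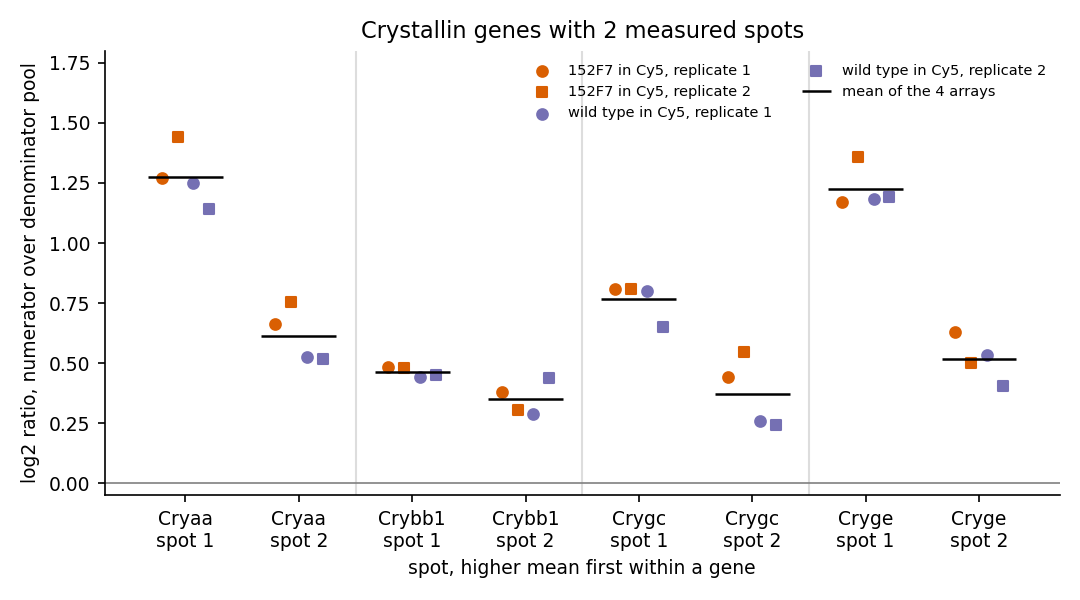
Log2 ratio of numerator over denominator pool (vertical axis) for each spot of the 4 lens crystallin genes with 2 measured spots (horizontal axis), by array, with 152F7 in Cy5 in orange, wild type in Cy5 in purple, circles for replicate 1 and squares for replicate 2. Black lines are means of the 4 arrays; the spots of Cryaa, Cryge and Crygc stand apart on every array, and those of Crybb1 are closer, at 0.46 and 0.35.

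The spread of spots matters for the order of genes. With the spot nearest to 0 taken for each gene, Cryge would be at 0.52 and Crygc at 0.37, and the median of the 10 would be 0.51. With either of its spots, Cryaa stayed past 1.5-fold. The gamma crystallins are also close copies of one another, and the probe sequences were not used here, so reads of Cryge, Crygf and Crygd in particular may not be separable and single gamma members are uncertain.

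The difference between dye orientations was not used to choose the genes, but the mean ratios it is set beside were. The dye contrast, which is the orientation mean for 152F7 in Cy5 less that for wild type in Cy5, divided by 2, was above 0 in 5 crystallins and below 0 in the other 5. Its size was largest for Cryba4, at 0.13. It was smaller than the mean ratio in all 10, which a choice of genes with large means makes likely, so nothing is read from it. The median size was 0.039 for the 10 crystallins and 0.048 for all genes. The orientations did not overlap in 6 of the 10, against 64.3% of all genes, a share near that of the table at large. The contrast of replicate 1 and replicate 2, taken likewise, had a size of at most 0.034 in the 10 crystallins.

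**Figure D3:**
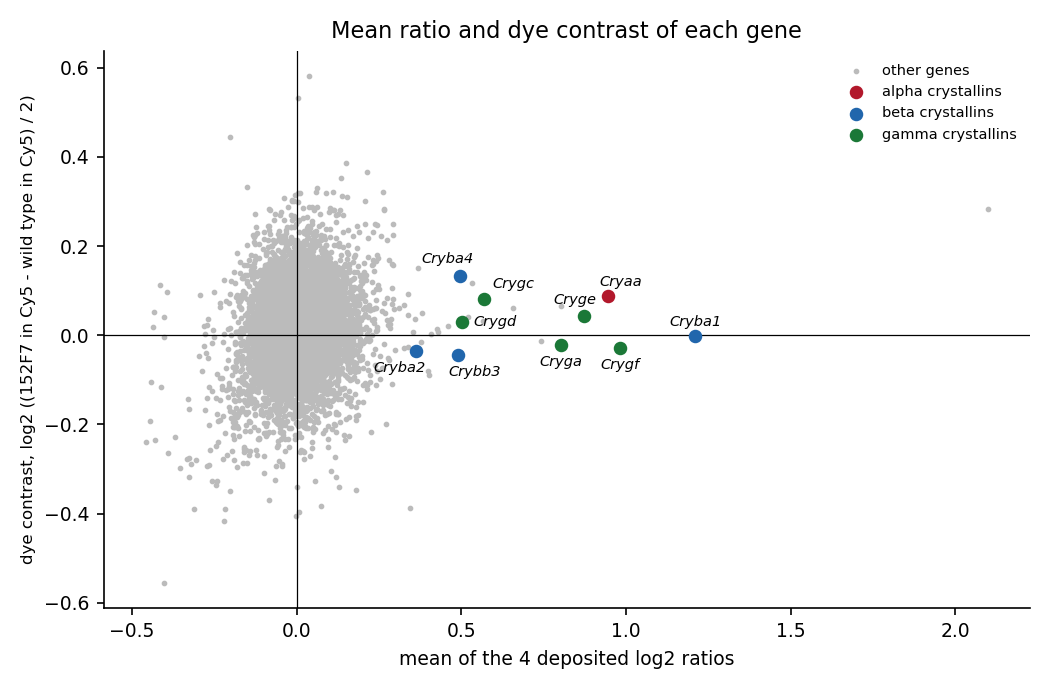
Dye contrast in log2 (vertical axis) against the mean of the 4 deposited log2 ratios (horizontal axis) for each gene, with alpha, beta and gamma crystallins in red, blue and green and other genes in grey. Xist, at -3.38, is left out for scale, and the crystallins lie on the right at dye contrasts of at most 0.13 in size, the lower ones, such as Cryba2 at 0.36, among other genes with ratios of that size such as Dcn at 0.43.

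Of the lens crystallins outside the 10, Crybb1 and Cryab were read on all 4 arrays and the others on 3 or fewer. Crybb1, the beta-B1 chain, read 0.431 and 0.393 with 152F7 in Cy5, and 0.365 and 0.445 with wild type in Cy5, and its mean of 0.41 ± 0.04, or 1.33-fold, lay above that of Cryba2. Cryab, the alpha-B chain, which many tissues outside the lens also make, read 0.153 and 0.218 with 152F7 in Cy5, and 0.155 and 0.141 with wild type in Cy5, for a mean of 0.17 ± 0.035 or 1.12-fold. A further Cryab spot with values on 3 arrays read 0.122 with 152F7 in Cy5, and -0.026 and -0.021 with wild type in Cy5. Crygn, gamma-N, had values on 3 arrays, 0.252 with 152F7 in Cy5, and 0.198 and 0.165 with wild type in Cy5. Crybb2 had a value on 1 array, 0.036, and Crygs on none. Together, 12 of 16 lens crystallins were read on all 4 arrays. All 12 were above 0 on each array (12.8% of all genes were), and 11 were past 0.32 (0.28% of all genes were). Since 10 of the 12 were chosen on these ratios, nothing is read from these counts. Outside the 10, Crybb1 passed 0.32 and Cryab did not.

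Genes that carry a crystallin name but belong to other families did not share these ratios. They include the quinone reductase genes Cryz and Cryzl1, the sugar dehydrogenase gene Cryl1, the thyroid hormone binding protein gene Crym and the beta-gamma domain genes Crybg1 and Crybg3. Their 6 means lay between -0.10 and 0.11 with a median of 0.02, and 0 of 6 passed 0.32. Crym was the highest at 0.11 ± 0.33, with 0.406 and 0.382 with 152F7 in Cy5, and -0.149 and -0.190 with wild type in Cy5, so its mean is smaller than its spread and its sign differs between the orientations.

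Several crystallins lie side by side in the genome. In the GRCm38.p6 gene table, Cryge, Crygd, Crygc, Crygb and Cryga follow one another on chromosome 1 with no other protein-coding gene between them, and Crygf and Cryba2 lie elsewhere on that chromosome. On chromosome 5, Cryba4 is next to Crybb1 and Crybb3 next to Crybb2. The neighbours Cryba4 and Crybb1 had means of 0.50 ± 0.16 and 0.41 ± 0.04. Within the chromosome 1 run the means were 0.87 for Cryge, 0.50 for Crygd, 0.57 for Crygc and 0.80 for Cryga, so Cryga lay above Crygd by more than the SDs over the arrays. The places of Cryge and Crygc in the run depend on the spot, since the lower Cryge spot (0.52) was close to Crygd and below the higher Crygc spot (0.77).

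The promoter windows, which the choice of genes did not use, were compared for all 10. By global alignment Cryge and Crygf shared 83.1% of aligned bases, the highest of the 45 pairs. Crygd shared 70.7% with Crygf and 66.8% with Cryge, with a run of 78 identical bases in the last pair. The 10 gamma pairs ran from 54.9% to 83.1%, and the 35 other pairs from 41.7% to 51.1%. Crygf, which shared most with Cryge, had a mean of 0.98 and Crygd one of 0.50, while the spots of Cryge, at 1.23 and 0.52, lay on either side of Crygf, the lower one near Crygd.

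TGCTGA or its reverse complement was in 7 of the 10 windows, all 4 beta genes, Cryaa, Cryga and Crygc, and in 19.5% of all 32851 RefSeq windows of this length. Cryba4 held it 3 times. ACAAT was in 4 of the 10, Cryaa, Crygd, Cryge and Crygf, against 31% of all windows. TATAAA was in 2, Cryba1 and Cryba2, against 13.6%, and its first base lay at -23 in Cryba1 and at -3 in Cryba2. TATATA was in 6, Cryaa and all 5 gamma genes, against 5.67%. That motif was added after the windows were seen, and the gamma windows are alike (54.9% to 83.1% shared bases), so nothing is read from its excess. In Cryga the TATATA matches overlap each other. These are matches of letters and not binding sites, and the 3 gamma windows without TGCTGA span genes with high and lower ratios alike.

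**Figure D4:**
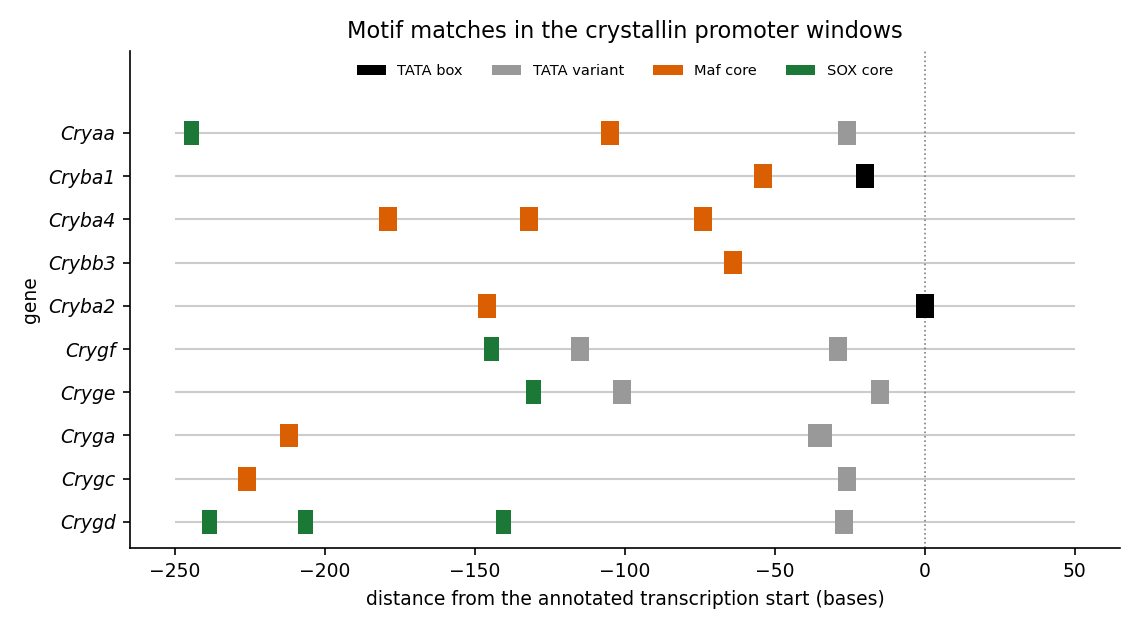
Positions of motif matches on either strand in the promoter window of each of the 10 crystallin genes (rows), in bases from the annotated transcription start (horizontal axis). Black marks the letters TATAAA (labelled TATA box), grey the variant TATATA, orange the Maf core and green the SOX core. The black match of Cryba2 begins at -3. The Maf core is present in 7 genes at differing distances, and each of the 5 gamma genes has the grey variant shortly before the start.

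Other genes of the lens had lower ratios than the 10 crystallins, which were chosen for high ratios, so nothing is read from that difference. Of 15 listed genes of lens fibres and their membranes 8 were read on all 4 arrays, with a median of 0.0025 and 0 past 0.32. Whether these 8 are made by the lens alone was not checked, so their median does not measure the lens content of the pools. Mip, the aquaporin that is the main membrane protein of lens fibres, was the highest at 0.28 ± 0.10 (1.21-fold), with 0.188 and 0.263 with 152F7 in Cy5, and 0.418 and 0.240 with wild type in Cy5, all 4 above 0. Tdrd7, an RNA granule protein needed in the lens, was at 0.17 ± 0.11 and also above 0 on all 4 arrays, and the heat shock protein gene Hspb1 at -0.04 ± 0.09. Bfsp1 and Bfsp2, the lens filament proteins, had 0.004 ± 0.02 and -0.02 ± 0.04. The connexin gene Gja3 and the lens membrane gene Lim2 had no spot with values on all 4 arrays.

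Of 15 listed lens transcription factors, 10 were read, 0 passed 0.32, and the median was -0.04. Sox1, which activates gamma crystallin genes in the lens, was at -0.13 ± 0.06 and Prox1, needed for fibre elongation, at 0.09 ± 0.15, and Meis1, a regulator upstream of Pax6, at -0.08 ± 0.08. Most of these factors are also made by the brain.

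Markers of tissues next to the lens were set beside the crystallins. Whether the telencephalon also makes these genes was not checked, so a median near 0 does not show equal amounts of such a tissue. In the retina list 6 of 15 genes were read, with a median of 0.03 and 0 past 0.32, led by Rax, a factor of the eye field, at 0.16 ± 0.02, then Sfrp1, a Wnt inhibitor, at 0.14 ± 0.08 and the factor Isl1 at -0.09 ± 0.13. In the pigment cell list 5 of 12 were read, with a median of 0.14 and 0 past 0.32. Of these 5 genes 4 were above 0 on all arrays (12.8% of all genes were). So were 2 of 6 retina, 0 of 10 surface ectoderm and 5 of 12 head mesenchyme genes. The melanosome gene Pmel was at 0.28 ± 0.05, Dct, an enzyme of melanin synthesis, at 0.25 ± 0.04 and the channel gene Trpm1 at 0.14 ± 0.04. Of the surface ectoderm list 10 of 13 were read, with a median of -0.01 and 0 past 0.32, and its keratin gene Krt14 was at -0.12 ± 0.08, Krt8 at -0.08 ± 0.03 and Trp63 at -0.06 ± 0.12. Of the head mesenchyme list 12 of 13 were read, with a median of 0.03, and the matrix genes Dcn at 0.43 ± 0.06 and Col1a1 at 0.34 ± 0.05 passed 0.32 upward while Alx1, a factor of facial mesenchyme, passed it downward at -0.40 ± 0.05 (0.136% of all genes were lower past that size). The part of any of these tissues in the crystallin ratios was not tested.

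**Figure D5:**
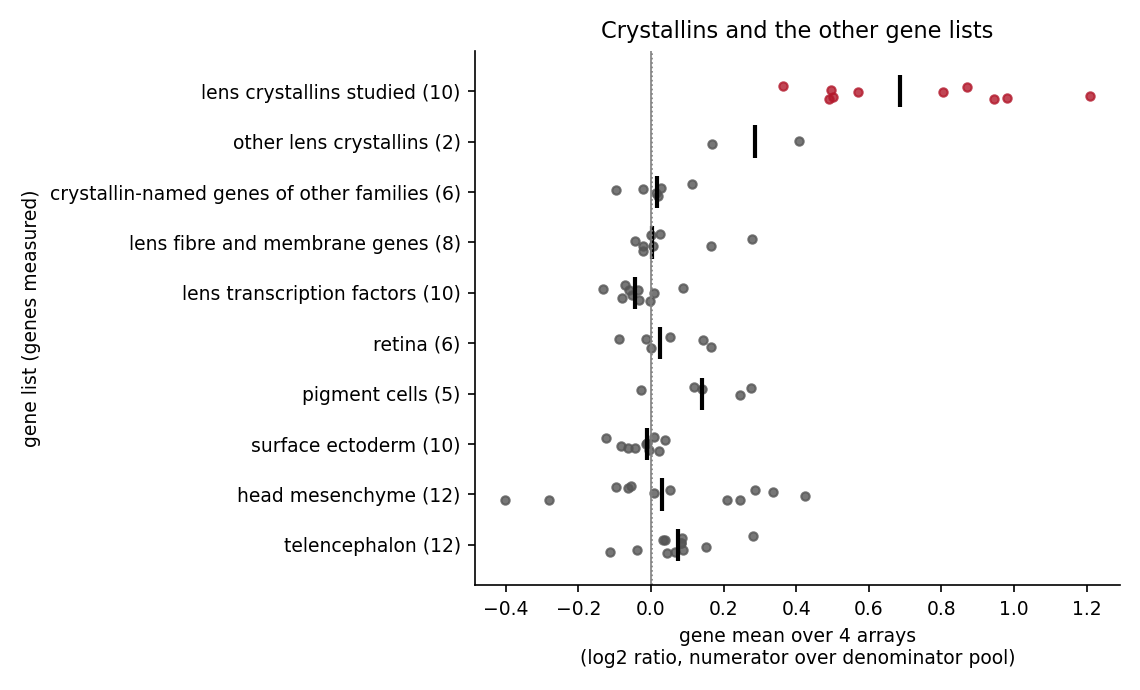
Gene means of the 4 log2 ratios (horizontal axis) in each gene list (rows, with the number of genes measured), as points with the list median as a black bar; red marks the 10 crystallins described. The crystallins lie between 0.36 and 1.21, while the medians of the lists from crystallin-named genes to telencephalon lie between -0.04 and 0.14.

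The tissue label was set against markers of the telencephalon. Of 14 listed genes 12 were read on all 4 arrays, with a median of 0.07 and 0 past 0.32, led by Lhx2 at 0.28 ± 0.12, then Nkx2-1 at 0.15 ± 0.22 and Gsx2 at -0.11 ± 0.04. A ratio gives no level, so their presence in the tissue rests on a value having been deposited. The pools also differed in sex-linked genes, with the Y-linked Eif2s3y at 2.10 ± 0.33 and Kdm5d at 0.80 ± 0.08 and the X-inactivation RNA Xist at -3.38 ± 0.11, the 1 gene past 1.5-fold downward (0.00848% of all genes). The crystallin ratios, the sex-linked genes and the genotype thus differ between the same 2 pools and cannot be told apart.

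The genes nearest to the crystallins in their 4 values were not lens genes. By Euclidean distance over the 4 arrays to the median profile of the 10 crystallins, which read 0.722 and 0.719 with 152F7 in Cy5, and 0.723 and 0.634 with wild type in Cy5, the nearest of the other genes was Aldoc, the brain form of aldolase, at a distance of 0.15. S100a9, a calcium-binding protein of myeloid cells, followed at 0.20, Kdm5d at 0.23, Lyz2, the lysozyme of macrophages, at 0.31 and Cstdc6 at 0.39. Their means were 0.66 ± 0.07 for Aldoc, 0.74 ± 0.08 for S100a9, 0.57 ± 0.07 for Lyz2 and 0.52 ± 0.06 for Cstdc6. The 10 crystallins themselves lay between 0.23, for Cryga, and 1.03, for Cryba1, from that profile, so most were farther from it than these 5 genes. The 5 genes were picked for the smallest distance, and the distance uses the ratios that chose the crystallins. It mainly finds genes with ratios of like size, so nothing is read from it.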

How the data were processed

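Each of 4 Agilent whole mouse genome arrays compared total RNA of a 152F7 and a wild-type telencephalon pool, 1 ug labelled per target, per the labels. The deposited table holds 1 log ratio per spot and array, read as log2; how the authors corrected, normalized and filtered the log2 values, and which way they run, is not stated in the labels. Values exist for 53.7% to 65.3% of the 44290 spots per array, with array medians between -0.007 and 0.007. Without intensities, brightness against background cannot be judged, and precision is limited by having 4 arrays. Spots were named by the platform annotation (32042 with 1 symbol, 47 with several, not used, and 12201 with none), and the symbols matched the GRCm38.p6 gene table for all 29 crystallin spots. Deposited log2 ratios were averaged over the 4 arrays for each complete spot, then over a gene's spots. All-spot correlations between arrays were 0.862 and 0.905 within and -0.596 to -0.661 between dye orientations, and over genes 0.634 and 0.737 within and 0.0379 to 0.0861 between.

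Analyses used Python 3.11.15 with pandas 2.3.3, and Biopython 1.88 for alignments. No p-value was computed, since each genotype is 1 pool. The call rule was tested on simulated data. The genes, lists, thresholds and markers were chosen with earlier results of these data known. Named were all lens crystallins, genes past 1.5-fold, per other list the 3 of largest size and any past 0.32, and the 5 genes nearest to the crystallins; Bfsp1, Bfsp2 and Crym were named after their values were seen. The alternatives were the ratio's direction, the log base, single orientations and arrays, the spot summary, missing values, centring, scaling, the sign demand and noisy spots.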

Additional observations from a re-analysis of the deposited data

Results flagged for a closer look

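Crygf stood out because 1 array lay far from the other 3: replicate 1 with 152F7 in Cy5 read 0.884, while the others read 1.023 with 152F7 in Cy5, and 1.011 and 1.008 with wild type in Cy5. Chance alone marks about 1 in 20 groups of 4 in this way.

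In 4 genes with a crystallin name that are not lens crystallins, both arrays of one dye orientation lay above 0 and both of the other below. The orientation mean for 152F7 in Cy5 less that for wild type in Cy5 came to 0.56 for Crym, 0.41 for Cryl1, 0.33 for Crybg3 and 0.0415 for Cryz. These differences were not tested. None of the 10 lens crystallins changed sign between orientations, which a choice of genes with large means makes likely, so nothing is read from it.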

How the results depend on the processing

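No paired analysis was possible because each genotype is 1 pool and no test was made; replicate numbers of the 2 orientations share only a number. Leaving out each array in turn gave 5 to 6 crystallins past 1.5-fold (9 to 10 of all genes) and 10 to 10 past 0.32 (31 to 37 of all genes). The median of the crystallins was then 0.67 to 0.71. With the signs of both arrays of wild type in Cy5 turned, 0 crystallins passed 1.5-fold, 0 passed 0.32, the median was 0.014, and the sign turned for Cryba1 (-0.0018), Cryba2 (-0.036), Crybb3 (-0.0445), Cryga (-0.023) and Crygf (-0.028). Read as natural logs, 9 passed 1.5-fold (20 of all genes) with a median of 0.99 in log2 units, and read as log10, 10 passed (213 of all genes) with a median of 2.28. The median was 0.51 with the spot nearest to 0 per gene, and 0.57 without the noisiest 25% of spots, which removed Cryge. In each case 4 crystallins passed 1.5-fold, with 8 of all genes in the first and 7 of 9751 genes in the second. Under the other alternatives, namely single orientations, the median over spots, missing values allowed, centring, scaling and no demand on the sign, the counts stayed at 5 to 7 and 10 and all 10 crystallins stayed above 0. With 152F7 in Cy5 alone 14 of all genes passed 1.5-fold and 125 passed 0.32, and with wild type in Cy5 alone 11 and 69. Under the rest of these alternatives 8 to 9 of all genes passed 1.5-fold and 33 to 34 passed 0.32.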
